A study of Mus musculus with 24 samples.

Results

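Paternally expressed imprinted genes were followed through differentiation of mouse embryonic stem cells towards extraembryonic endoderm (XEN), in wild-type (WT) cells and in cells without AGO2. The 9 genes were Plagl1, Nnat, Peg10, Sgce, Peg3, Snrpn, Ndn, Impact and Mest, found by symbol among the 30590 genes of the day 1 to 4 files and by Ensembl identifier among the 43629 of the endpoint files. All 9 were present in both and passed the filter on low counts. The genes were listed with earlier results of these libraries known, among them the differences between genotypes and between days given here, and no threshold on a measured value was recorded. Their differences are therefore a description, and the counts of called genes carry no independent weight.

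Imprinted genes are transcribed mainly from 1 parental allele, because DNA methylation laid down in the egg or the sperm marks a control region and is kept through later divisions. The genes described here are expressed from the paternal allele, and several are active in placenta, mesoderm, brain and other growing tissues. In embryonic stem cells such marks can be lost or gained in culture. The counts do not separate the parental alleles, so every value is the summed RNA of both.

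The cells were E14 mouse embryonic stem cells (mESCs) of 129/Ola background, either WT or with Ago2 knocked out (AGO2 KO). AGO2 is the Argonaute protein that carries microRNAs and cleaves matching RNA. Before differentiation all cells were kept with 15% serum and LIF at 100 U/mL. For differentiation the labels give 5 days in a medium that holds activin A at 10 ng/mL, retinoic acid at 0.1 µM and again 15% serum, and name no LIF in it. WT and AGO2 KO cells were sampled at days 1, 2, 3 and 4 of this culture, with 2 libraries in each of these 8 groups. The labels name no clone for the AGO2 KO libraries of these days. A difference between genotypes over the course therefore cannot be told apart from a trait of the clone or clones used. Endpoint groups of 2 libraries each were WT mESC, at passages 33 and 42, WT differentiated cells (diff_XEN, columns A and B) and AGO2 KO diff_XEN, where each library is a different clone, C4 and 5-3. The labels mark the endpoint samples, but not the course samples, as re-used. They do not say that both came from the same experiment. The 2 AGO2 KO mESC samples were not analysed here, so no difference between genotypes before differentiation is given. For the other 9 groups used, nothing says that the 2 libraries came from separate cultures, and p-values there measure only the spread between these libraries, which may be technical.

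Levels are CPM, the read counts of a gene per fixed depth after TMM scaling of the library, from libraries of 10601574 to 40139219 counts. Differences are log2 fold changes ± SE, and a gene is called at an adjusted p below 0.05 (edgeR quasi-likelihood test, Benjamini-Hochberg over all genes tested). Ago2 itself stood at 33.8 to 148 CPM in the 8 AGO2 KO course libraries and at 186 to 581 CPM in the 8 WT ones, with no overlap. Primitive endoderm and XEN markers summed to 390 to 4063 CPM over the AGO2 KO course and to 622 to 13376 CPM over the WT course, with none of the 14 markers at 0, and 11 of 14 were called lower in AGO2 KO at day 4. Visceral endoderm markers summed to 108 and 124 CPM in AGO2 KO and to 2704 and 2565 CPM in WT at day 4, with none of the 8 at 0 and 7 called lower. Over all genes tested, 5.05% were called lower at day 4.

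Plagl1 and Nnat stood furthest apart between the genotypes, and their promoter windows are shown first for that reason. Each window runs from 250 bases before to 50 after the RefSeq start, on the gene's strand and 5′ to 3′, in GRCm38.p6, the assembly of mm10. Capitals mark the hexamer TGCCGC or its reverse complement GCGGCA, the letters that the imprint-keeping zinc finger protein ZFP57 is known to bind when methylated. The Plagl1 window lies at chr10:13090582-13090881 on the plus strand, inside the annotated span of the gene, and the Nnat window at chr2:157559828-157560127 on the plus strand.
Plagl1: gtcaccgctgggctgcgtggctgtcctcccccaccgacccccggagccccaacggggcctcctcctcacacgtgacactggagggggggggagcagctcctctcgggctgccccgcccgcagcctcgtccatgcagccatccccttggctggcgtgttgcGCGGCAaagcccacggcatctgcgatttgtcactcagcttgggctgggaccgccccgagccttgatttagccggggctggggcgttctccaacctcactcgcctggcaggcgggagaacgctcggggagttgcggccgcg
Nnat: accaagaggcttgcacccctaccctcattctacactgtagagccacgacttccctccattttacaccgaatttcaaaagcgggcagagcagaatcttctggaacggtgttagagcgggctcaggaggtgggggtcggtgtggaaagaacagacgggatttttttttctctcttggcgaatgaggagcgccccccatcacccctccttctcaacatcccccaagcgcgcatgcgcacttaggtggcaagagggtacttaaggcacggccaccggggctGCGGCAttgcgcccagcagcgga
The hexamer begins at base 161 of the Plagl1 window and at base 278 of the Nnat window. Windows of 6 of the 9 genes were used, 11 windows in all. Impact, Peg10 and Sgce are not among them, so the tallies below do not cover these genes. TGCCGC was found on either strand in 5 of the 11 windows, from 4 genes (Plagl1, Nnat, Mest and Snrpn), and in 11.6% of all 32851 RefSeq windows of that length. Of these 5, 2 are Mest windows that start 3 bases apart (chr6:30737800-30738099 and chr6:30737803-30738102) and hold the same pair of hexamers, so they are not separate matches. The Plagl1 window holds 26 CpG sites, more than 83.1% of all windows, and the Nnat window 17, against a median of 7. The Peg3 window, at chr7:6730370-6730669 on the minus strand, holds 13 CpG sites and is the only one of the 11 with GGGGCCCC, the letters known for PLAGL1 binding, which 1.08% of all windows hold. GCCATNTT, the letters known for YY1, was found in none of the 11 and in 6.05% of all windows. A match describes letters in these windows and is no measurement of binding or methylation.

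Plagl1 encodes a zinc finger transcription factor that acts on other imprinted genes and on the cell cycle, and lies at chr10:13060504-13131694. Across the WT course it stood at 1.64 and 1.30 CPM at day 1, 3.42 and 3.52 at day 2, 12.1 and 1.57 at day 3, and 30.7 and 12.6 at day 4. Across the AGO2 KO course it stood at 13.6 and 9.76 CPM at day 1, 95.6 and 156 at day 2, 133 and 211 at day 3, and 267 and 211 at day 4. On each day both AGO2 KO libraries were above both WT libraries, and every AGO2 KO library from day 2 on was above every WT library of the course. The difference was 2.98 ± 0.72 at day 1, 5.18 ± 0.71 at day 2, 4.71 ± 0.69 at day 3 and 3.47 ± 0.63 at day 4, and Plagl1 was called on all 4 days. In bulk RNA such as this, fewer cells of a type and less RNA per cell cannot be told apart.

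Nnat encodes neuronatin, a small membrane proteolipid of the endoplasmic reticulum known from neurons and endocrine cells, and lies at chr2:157560078-157562522 inside the span of Blcap on the opposite strand. The strand setting of the counting is not given in the sources used here, so reads of Nnat and Blcap may not have been told apart. In WT it stood at 2.56 and 3.70 CPM at day 1, 9.78 and 11.1 at day 2, 14.4 and 1.23 at day 3, and 16.9 and 8.59 at day 4. In AGO2 KO the values were 14.4 and 22.3 CPM at day 1, 30.7 and 38.5 at day 2, 39.7 and 63.9 at day 3, and 118 and 70.3 at day 4. Again the AGO2 KO pair was above the WT pair on each day, while the highest WT library, at day 4, was above the lower AGO2 KO library of day 1. The difference was called at day 1 (2.55 ± 0.73) and day 4 (2.89 ± 0.71), and was 1.73 ± 0.68 at day 2 and 2.77 ± 0.73 at day 3 without a call.

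**Figure D1:**
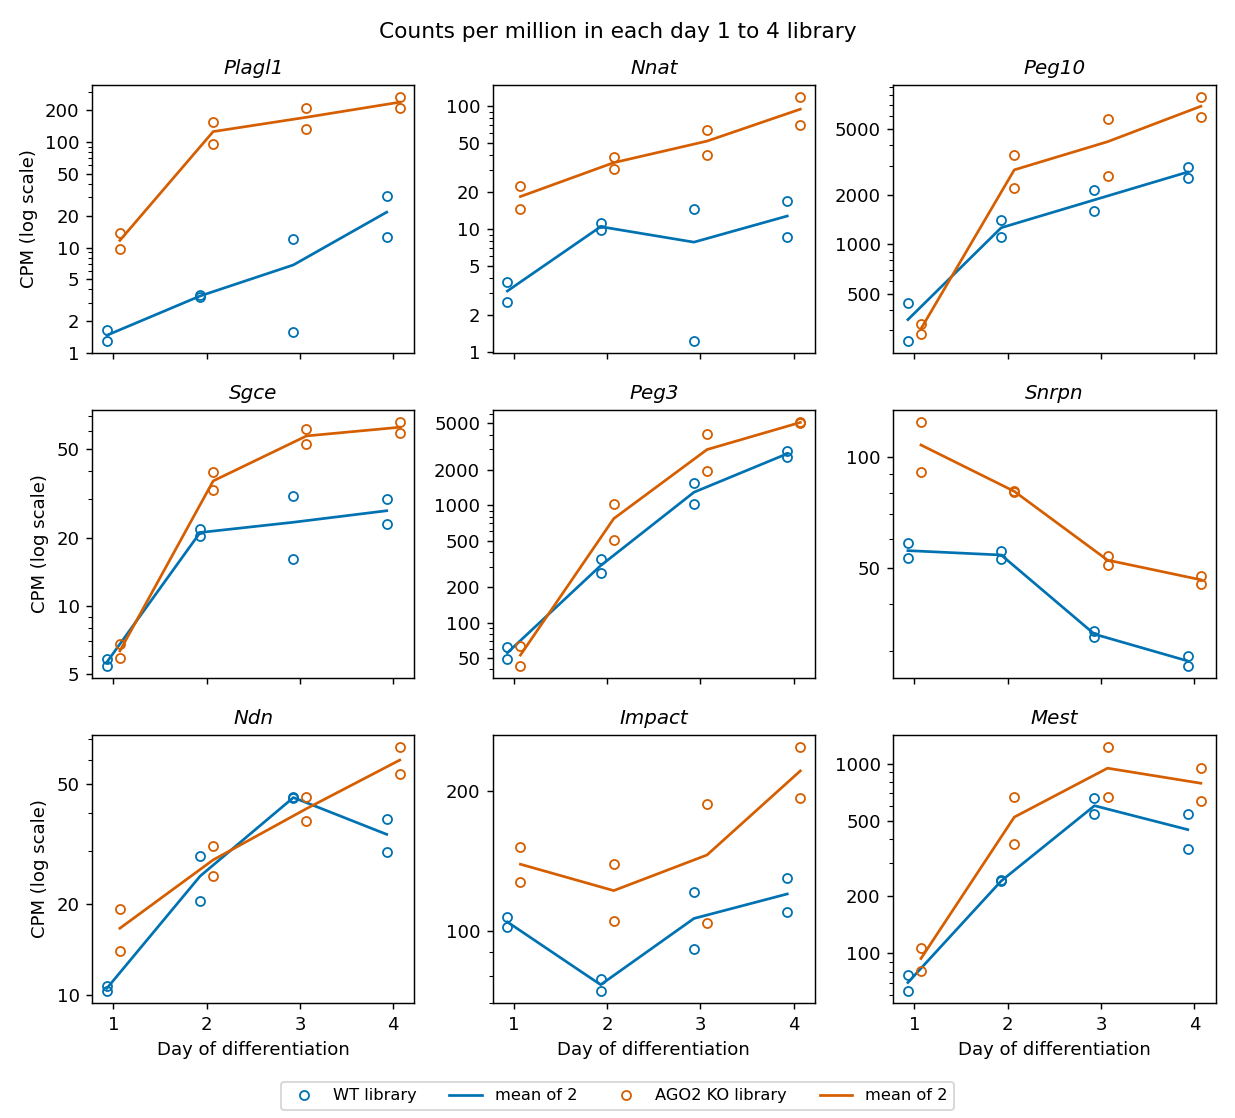
CPM (log scale) against day for each of the 9 genes. Open circles are single libraries, 2 for each genotype and day, and lines join the means. The 2 AGO2 KO libraries of Plagl1 and of Nnat are above the 2 WT libraries on each day, and Snrpn falls with time in both genotypes while the other genes rise or, for Impact, vary little in WT.

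Plagl1 and Nnat also shared 1 irregular library. In WT at day 3, replicate 1 exceeded replicate 2 by 7.71-fold for Plagl1 (131 against 23 counts) and by 11.7-fold for Nnat (156 against 18 counts). These were the widest gaps between replicates of either gene, and for the other 7 genes the widest gap in any course group was 1.36-fold to 2.22-fold. Of 15170 genes with at least 20 counts over both libraries, 1.56% were at least 4-fold apart between them, a size chosen after the values were seen. H19, a maternally expressed RNA of another locus, was 5.55-fold apart in the same direction. Pluripotent stem cell markers summed to 1172 CPM in replicate 1 and 2013 in replicate 2, mesenchyme and mesoderm markers to 2069 and 978, and trophoblast markers to 110 and 36.9. None of the 3 lists had a marker at 0 in that group. The other lists lay closer together in replicates 1 and 2. Primitive endoderm and XEN markers summed to 5589 and 5511 CPM, visceral endoderm markers to 939 and 791, and neural markers to 384 and 365. The part of any of these lists in the gap was not tested. Without replicate 1 the day 3 difference between genotypes was 6.77 for Plagl1 and 5.39 for Nnat, and without replicate 2 it was 3.85 and 1.86.

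**Figure D2:**
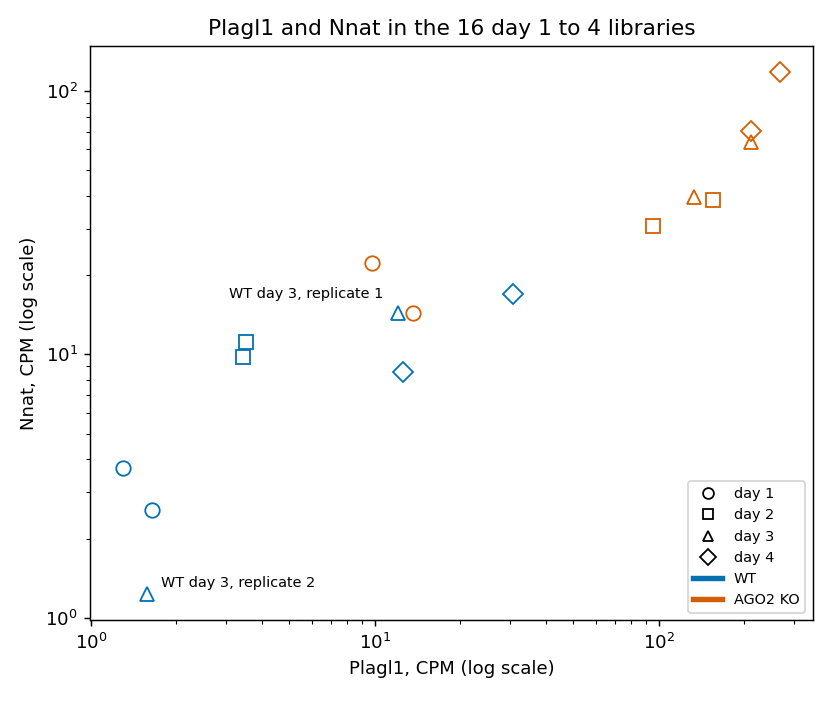
Nnat CPM against Plagl1 CPM, both on log scales, in the 16 course libraries, with colour for genotype and shape for day. WT day 3 replicate 2 lies at the lower left, at 1.57 CPM of Plagl1 and 1.23 CPM of Nnat, and its partner at 12.1 and 14.4 CPM.

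Over the 8 group means of the course, the log2 level of Plagl1 followed that of Nnat with Pearson r = 0.951, a description over means that share the same libraries and depth. The comparison covered 11011 other genes, each averaging 5 CPM or more, and the patterns most like Plagl1 were those of Mnt (r = 0.992), Gli2 (r = 0.976) and Pde7a (r = 0.974), which spanned much narrower ranges, such as 35.6 to 64.4 CPM for Mnt. For Nnat they were Lfng, Mnt and Psap, with r between 0.959 and 0.968.

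Peg10 and Sgce form a divergent pair on chromosome 6, with 98 bases between their annotated spans. Peg10 is a gene derived from a retrotransposon and needed for the placenta, at chr6:4747306-4760517, and Sgce encodes epsilon-sarcoglycan, a membrane glycoprotein, at chr6:4674350-4747207. Peg10 stood at 258 and 437 CPM in WT at day 1, 1409 and 1104 at day 2, 2125 and 1587 at day 3, and 2955 and 2523 at day 4. In AGO2 KO it stood at 328 and 283 CPM at day 1, 2194 and 3452 at day 2, 2599 and 5770 at day 3, and 7808 and 5935 at day 4. The genotypes overlapped at day 1 and were apart on the 3 later days, AGO2 KO higher. The difference was -0.18 ± 0.35 at day 1, 1.17 ± 0.35 at both day 2 and day 3, and 1.33 ± 0.35 at day 4, where it was called.

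Sgce followed the same course at a far lower level. WT values were 5.85 and 5.43 CPM at day 1, 20.5 and 22.0 at day 2, 31.0 and 16.2 at day 3, and 30.0 and 23.1 at day 4. AGO2 KO values were 6.77 and 5.89 CPM at day 1, 32.7 and 39.3 at day 2, 61.4 and 52.7 at day 3, and 65.7 and 59.0 at day 4. At day 1 the ranges were barely apart, and from day 2 on every AGO2 KO library was above every WT library of the course. Sgce was called at day 3 (1.28 ± 0.24) and day 4 (1.23 ± 0.24), and was 0.17 ± 0.26 at day 1 and 0.76 ± 0.24 at day 2 without a call. The log2 group means of Peg10 and Sgce had r = 0.986 over the 8 groups, the highest among the 9 genes. Genes outside the 9 were closer still to each, such as Olfml3 to Peg10 (r = 0.996) and Cdc42ep4 to Sgce (r = 0.993). The value therefore does not set the pair apart.

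Peg3, which encodes a large zinc finger protein expressed in mesoderm, brain and placenta and lies at chr7:6703892-6730431, had the steepest rise with time. It stood at 48.5 and 62.0 CPM in WT at day 1, 346 and 265 at day 2, 1554 and 1024 at day 3, and 2922 and 2571 at day 4. In AGO2 KO it stood at 62.9 and 42.7 CPM at day 1, 505 and 1031 at day 2, 1954 and 4004 at day 3, and 5039 and 5103 at day 4. The ranges overlapped at day 1 and did not on the later days. The difference between genotypes was -0.06 ± 0.37, 1.33 ± 0.37, 1.21 ± 0.37 and 0.88 ± 0.37 from day 1 to day 4 and was called on none of these days, with adjusted p from 0.0842 to 0.927. The genes most like Peg3 over the 8 group means were Hs6st2 (r = 0.999), Samd4 (r = 0.997) and Pkdcc (r = 0.996).

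Mest, an alpha/beta hydrolase gene known from mesoderm at chr6:30723547-30748465, rose to day 3 and was not higher at day 4. WT values were 63.3 and 76.8 CPM at day 1, 239 and 242 at day 2, 655 and 544 at day 3, and 544 and 353 at day 4. In AGO2 KO they were 80.6 and 107 CPM at day 1, 375 and 669 at day 2, 670 and 1221 at day 3, and 943 and 632 at day 4. AGO2 KO was above WT on each day without overlap, by a small margin at day 3. No day was called, with differences of 0.42 to 1.12 and adjusted p from 0.119 to 0.385.

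Snrpn, whose product is a core protein of spliceosomal ribonucleoproteins, lies at chr7:59982495-60140219 and ran the other way with time. WT values were 58.5 and 53.2 CPM at day 1, 55.8 and 52.9 at day 2, 33.9 and 32.6 at day 3, and 27.3 and 29.0 at day 4. AGO2 KO values were 91.2 and 124 CPM at day 1, 80.4 and 81.0 at day 2, 54.1 and 51.2 at day 3, and 47.8 and 45.4 at day 4. AGO2 KO was higher on each day without overlap, and replicates lay closer together than for any other listed gene, with gaps of at most 1.36-fold. Snrpn was called at day 1 (0.94 ± 0.15), day 3 (0.66 ± 0.15) and day 4 (0.73 ± 0.15), and at day 2 it was 0.57 ± 0.14 with an adjusted p of 0.0682. The gene overlaps Gm38393 on the same strand, which held 0.921 to 35.7 CPM over the course, and its span holds Snurf, also on the same strand, so how reads were split between them is uncertain.

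Ndn encodes necdin, a MAGE family protein of neurons and mesenchyme, at chr7:62346569-62350262 in the same imprinted domain as Snrpn, with 2206349 bases between their spans. It stood in WT at 10.7 and 10.3 CPM at day 1, 20.5 and 28.9 at day 2, 45.2 and 44.7 at day 3, and 38.3 and 29.6 at day 4. In AGO2 KO it stood at 14 and 19.2 CPM at day 1, 24.8 and 31.1 at day 2, 37.6 and 45.0 at day 3, and 66.0 and 53.6 at day 4. The genotypes overlapped at days 2 and 3 and were apart at days 1 and 4, AGO2 KO higher. The difference was 0.65 ± 0.22, 0.18 ± 0.21 and -0.13 ± 0.21 on the first 3 days and 0.82 ± 0.21 at day 4, where it was called.

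Impact, a regulator of the GCN2 kinase in amino acid stress, varied least. It stood in WT at 102 and 107 CPM at day 1, 78.9 and 74.3 at day 2, 91.6 and 121 at day 3, and 130 and 110 at day 4. In AGO2 KO it stood at 151 and 127 CPM at day 1, 105 and 139 at day 2, 104 and 187 at day 3, and 248 and 193 at day 4. AGO2 KO was higher without overlap at days 1, 2 and 4, and the ranges overlapped at day 3. The difference was called at day 4 (0.88 ± 0.24), and on the other days it was 0.41 to 0.68 with adjusted p from 0.20 to 0.316.

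Counted over the 9 genes, AGO2 KO libraries were called higher than WT for 3 genes at day 1, 1 at day 2, 3 at day 3 and 7 at day 4, and lower for none on any day. Over all 17694 genes tested, 6.89% were called higher and 6.71% lower at day 1, 0.774% and 0.853% at day 2, 1.83% and 3.0% at day 3, and 1.99% and 5.05% at day 4. The 2 genes not called at day 4 were Peg3 and Mest, whose ranges did not overlap either. Both AGO2 KO libraries lay above both WT libraries for 7 of the 9 genes at day 1, 8 at day 2, 7 at day 3 and all 9 at day 4, where over all genes the share was 31.3%, 26.9%, 20.9% and 26.4%. The median difference of the 9 genes was 0.42, 1.12, 1.17 and 0.88 from day 1 to day 4, and the median over all genes lay between -0.02 and 0. With 1 library left out, the count at day 1 fell to 1 without AGO2 KO replicate 2 or WT replicate 1 and to 0 without WT replicate 2, and at day 2 it fell to 0 without either WT library and was 2 without AGO2 KO replicate 1. At day 3 it was 2 to 5, the highest without WT replicate 1, and at day 4 it was 5 without AGO2 KO replicate 2, 2 without WT replicate 1, and 1 without AGO2 KO replicate 1 or WT replicate 2. The counts at days 2 and 3 also moved with the fit, to 5 and 6 by DESeq2, 7 and 7 without the expression filter, and 7 and 0 with the compared libraries alone. The shares over all genes above belong to the main edgeR fit and are not given for these other fits. These counts are therefore no result about the 9 genes. Neural markers summed to 786 and 529 CPM in AGO2 KO and to 527 and 334 CPM in WT at day 4, with 2 of 9 tested called higher (Pax6 and Ncam1) and Neurog2 at 0 in AGO2 KO, and their part in the values of Nnat and Ndn was not tested.

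**Figure D3:**
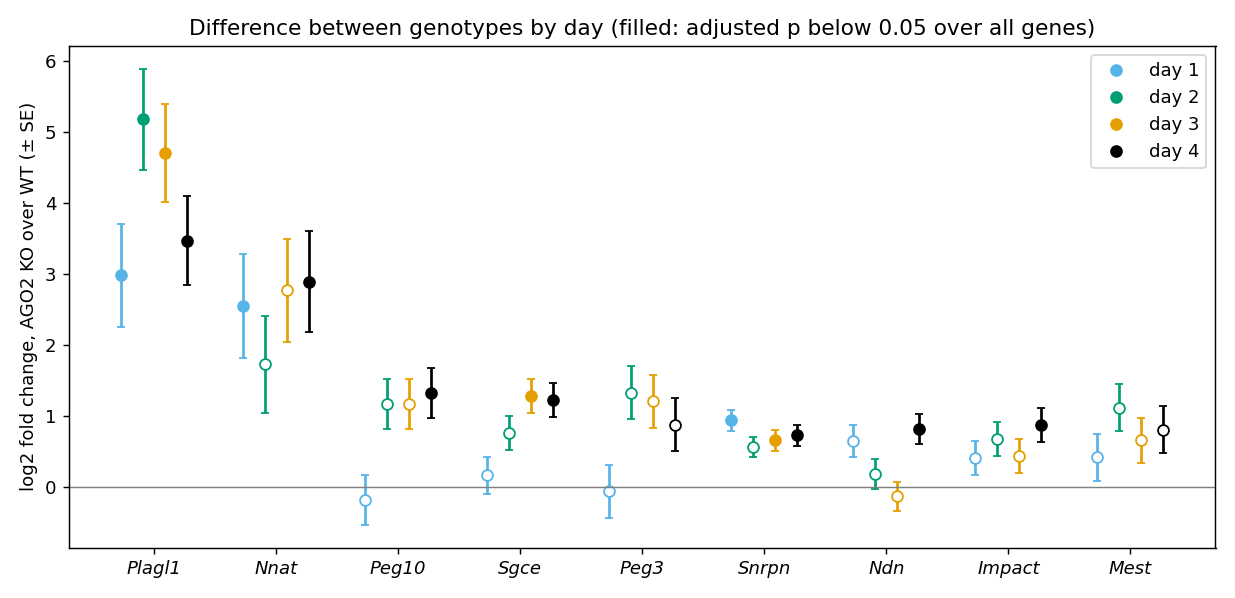
Log2 fold change of AGO2 KO over WT with its SE, for each gene and day. Filled points are called and open points are not. Plagl1 lies between 2.98 and 5.18, Nnat between 1.73 and 2.89, and the other 7 genes at or below 1.33.

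Levels of most of the genes changed with time in both genotypes. From day 1 to day 4 in WT, 7 of the 9 genes were called higher and Snrpn lower, where 26.9% of all genes were called higher and 21.6% lower. The rise was 5.64 ± 0.44 for Peg3, 3.86 ± 0.73 for Plagl1, 2.98 ± 0.38 for Peg10, 2.68 ± 0.35 for Mest, 2.23 ± 0.26 for Sgce, 2.01 ± 0.75 for Nnat and 1.69 ± 0.22 for Ndn. Snrpn fell by 0.99 ± 0.15 on the log2 scale, and Impact, at 0.19 ± 0.24, was not called. The rise of Nnat in WT was not called when any 1 of its 4 libraries was left out (1.44 to 2.38, adjusted p from 0.0582 to 0.258). In AGO2 KO, 8 genes were called higher and Snrpn lower, against 33.3% and 32.9% of all genes. Peg3 rose by 6.58 ± 0.46, Peg10 by 4.49 ± 0.40, Plagl1 by 4.35 ± 0.65, Sgce by 3.30 ± 0.26, Mest by 3.07 ± 0.35, Nnat by 2.36 ± 0.68, Ndn by 1.85 ± 0.22 and Impact by 0.66 ± 0.24, and Snrpn fell by 1.21 ± 0.15. Over the same days, mesenchyme and mesoderm markers, 12 of the 13 listed being in the files, summed in WT to 78.1 and 91.2 CPM at day 1 and to 2055 and 4983 CPM at day 4. In AGO2 KO these sums were 90.3 and 118 CPM, then 7280 and 3757 CPM. At 0 in both libraries of a group were Dcn in WT and Col3a1 in AGO2 KO at day 1, and Mesp1 in AGO2 KO at day 4. Their part in the rise was not tested.

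The change over time was also compared between genotypes directly. None of the 9 genes was called by edgeR, against 6.42% of all genes. Of the 9, 2 had an unadjusted p below 0.05 and 2 were called by DESeq2, and shares over all genes for these are not given. The extra rise in AGO2 KO was 1.51 ± 0.50 for Peg10 (adjusted p = 0.0782) and 1.06 ± 0.35 for Sgce (adjusted p = 0.0773). For Plagl1 it was 0.49 ± 0.95 and for Nnat 0.34 ± 0.99, the widest errors of the 9.

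Per kilobase of annotated exon, Peg10 had the highest level among the 9 genes at day 4 in both genotypes, at 410 CPM per kb in WT and 1030 in AGO2 KO. Peg3 followed at 206 and 380 CPM per kb and Mest at 114 and 200. Plagl1 and Sgce were lowest in WT, at 2.77 and 2.5 CPM per kb. In AGO2 KO the level of Plagl1 was 30.5 CPM per kb, above Snrpn at 21.6, Ndn at 16.2 and Sgce at 5.88.

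In the endpoint libraries the 2 AGO2 KO clones have to be read apart. Plagl1 stood at 85.2 CPM in clone C4 and at 0.723 CPM in clone 5-3, with 0.974 and 0.875 CPM in the WT diff_XEN libraries. Nnat stood at 139 CPM in C4 and 6.22 CPM in 5-3, with 0.866 and 0.109 CPM in WT. Clone C4 was thus 118-fold above clone 5-3 for Plagl1, from 1246 and 25 counts. There 5-3 was below both WT libraries, which held only 36 and 32 counts. For Nnat C4 was 22.3-fold above 5-3, from 2038 and 215 counts, and 5-3 was above both WT libraries, which held 32 and 4. Among 15307 genes with at least 20 counts over both clones, 1.92% were at least 4-fold apart and 0.817% were so with C4 higher. Ago2 stood at 115 CPM in C4 and 9.35 CPM in 5-3, against 389 and 427 CPM in WT, so the clones also differed in the RNA of the targeted gene.

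The other 7 genes were less than 4-fold apart between the clones. Peg10 was 2.01-fold higher in C4, with 4324 CPM against 2149 in 5-3, and 1169 and 1171 in WT. Ndn stood at 118 CPM in C4 and 138 in 5-3, far above 22.1 and 17.6 in WT, and Mest at 249 and 258, above 83.1 and 63.3. Peg3 stood at 2665 CPM in C4 and 2758 in 5-3, above 1607 and 1594 in WT, and Snrpn at 39.9 and 29.4, above 19.1 and 13.6. Sgce stood at 42.2 and 25.5 CPM, on either side of 29.4 and 29.8 in WT. Impact stood at 110 and 57.1 CPM, below 114 and 167.

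With both clones in the group, 6 of the 9 genes were called higher in AGO2 KO diff_XEN, where 22.1% of 16671 genes were called higher and 24.9% lower. These were Nnat (7.20 ± 1.77), Ndn (2.72 ± 0.21), Mest (1.82 ± 0.20), Peg10 (1.49 ± 0.34), Snrpn (1.10 ± 0.26) and Peg3 (0.79 ± 0.18). Plagl1, at 5.52 ± 1.96, was not called (adjusted p = 0.0659), and without clone C4 its value was -0.28. Nnat was called without clone 5-3 (8.16) but not without C4 (3.74, adjusted p = 0.0586), WT library A (9.31, adjusted p = 0.0882) or WT library B (6.43, adjusted p = 0.136). Without C4, 2 of the 9 genes were called, and without WT library B 3 were. Marker sums are given for C4 and then 5-3, and for WT library A and then B. Neural markers summed to 762 and 803 CPM in the clones and to 143 and 100 CPM in WT diff_XEN, with Neurog2 at 0 in both clones. Mesenchyme and mesoderm markers summed to 8574 and 10157 CPM in the clones and to 1596 and 671 CPM in WT. T was at 0 in both clones and Mesp1 at 0 in all 4 libraries. Primitive endoderm and XEN markers summed to 7743 and 9222 CPM in the clones and to 49144 and 73815 CPM in WT. Visceral endoderm markers summed to 129 and 159 CPM in the clones and 9114 and 8791 CPM in WT. Pluripotent stem cell markers summed to 62.8 and 71.4 CPM in the clones and to 766 and 836 CPM in WT, and none of these 3 lists had a marker at 0. Trophoblast markers summed to 138 CPM in C4 and 75.4 CPM in 5-3 and to 43.6 and 26.1 CPM in WT, with Cdx2 at 0 in both clones. The part of any of these lists in the values was not tested.

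**Figure D4:**
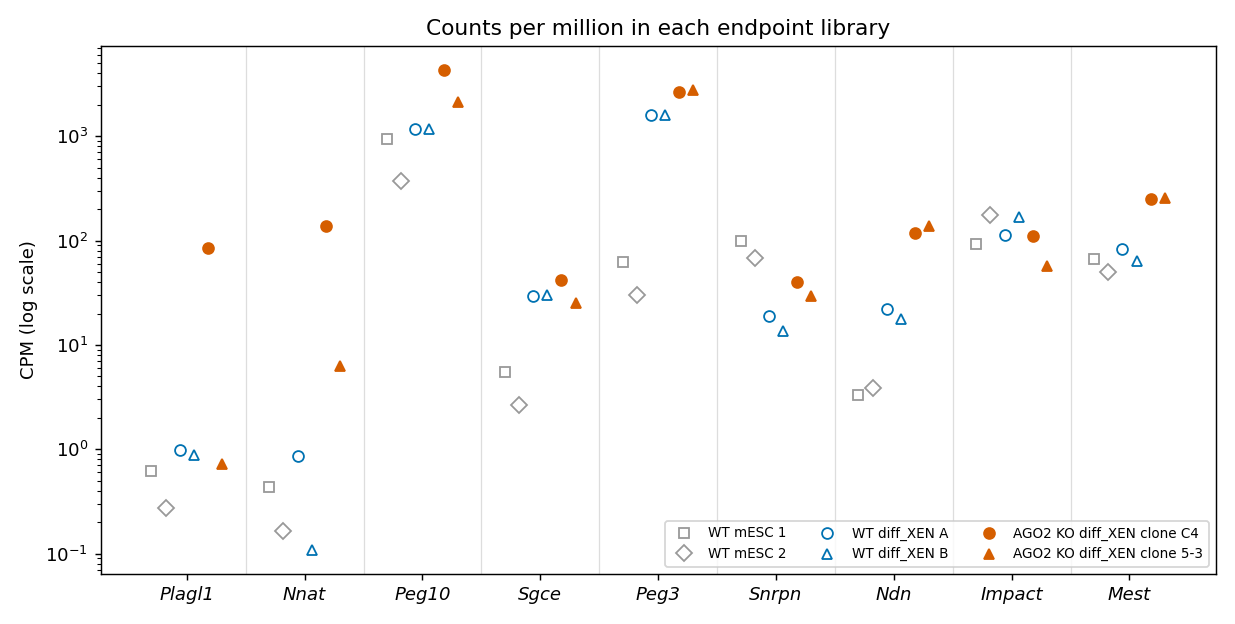
CPM (log scale) of each gene in the 6 endpoint libraries, with squares and diamonds for WT mESC, open symbols for WT diff_XEN and filled symbols for the AGO2 KO clones. Clone C4 lies apart from clone 5-3 for Plagl1 (85.2 against 0.723 CPM) and Nnat (139 against 6.22 CPM).

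WT mESC, marked as re-used, gave a level of undifferentiated cells for 1 genotype. Plagl1 stood there at 0.624 and 0.274 CPM and Nnat at 0.432 and 0.164 CPM, with no call against WT diff_XEN (1.02 ± 1.67 and 0.68 ± 1.61). Peg3 went from 62.3 and 30.0 CPM in mESC to the WT diff_XEN levels above (5.12 ± 0.40), Sgce from 5.47 and 2.66 CPM (2.86 ± 0.42) and Ndn from 3.34 and 3.84 CPM (2.47 ± 0.24), and all 3 were called. Snrpn fell from 99.5 and 67.4 CPM by 2.35 ± 0.31 on the log2 scale. Peg10 (934 and 376 CPM), Impact (93.4 and 177 CPM) and Mest (66.7 and 50.3 CPM) were not called. Of all 17936 genes tested, 27.2% were called higher and 25.3% lower in WT diff_XEN.

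Neighbouring genes at the same loci were tested in the same fits. Of 33 listed neighbours, 23 were tested in the course. At day 1 a call was made upward for 1 (Sf3b5) and downward for 2 (Pon3 and Usp29), beside shares over all genes of 6.89% and 6.71%. No neighbour had a call at day 2, where these shares were 0.774% and 0.853%, or at day 3, where they were 1.83% and 3.0%. At day 4 there was 1 upward call and none downward, beside 1.99% and 5.05%. With shares this low, few or no calls among 23 genes do not set the neighbours apart. At days 2 and 3, 5 neighbours each had an unadjusted p below 0.05 in edgeR, and DESeq2 called 0 and 1. Shares over all genes for these counts are not given. The call at day 4 was Blcap, a maternally expressed gene in brain whose span holds Nnat, so the doubt about strand bears on this call too, with 51.8 and 63.7 CPM in AGO2 KO and 35.6 and 36.4 CPM in WT (0.68 ± 0.16). Beside Plagl1, the difference at day 4 was 0.55 ± 0.19 for Phactr2, -0.27 ± 0.16 for Ltv1 and -0.33 ± 0.18 for Sf3b5. Beside Peg3, it was -0.49 ± 0.48 for Usp29 and 0.09 ± 0.30 for Zim1, and beside Ndn it was -0.66 ± 0.37 for Magel2 and 0.44 ± 0.20 for Mkrn3. None of these was called. The median over the 23 neighbours was 0.36 at day 4. In diff_XEN 7 of 22 tested neighbours were called higher and 5 lower, against 22.1% and 24.9% of all genes, with a median of 0.26. There Blcap was again higher (1.52 ± 0.15), Magel2 (2.63 ± 0.80) and Mkrn3 (1.36 ± 0.25) beside Ndn were higher, and Phactr2 (-0.98 ± 0.24) and Ltv1 (-1.29 ± 0.21) beside Plagl1 were lower.

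**Figure D5:**
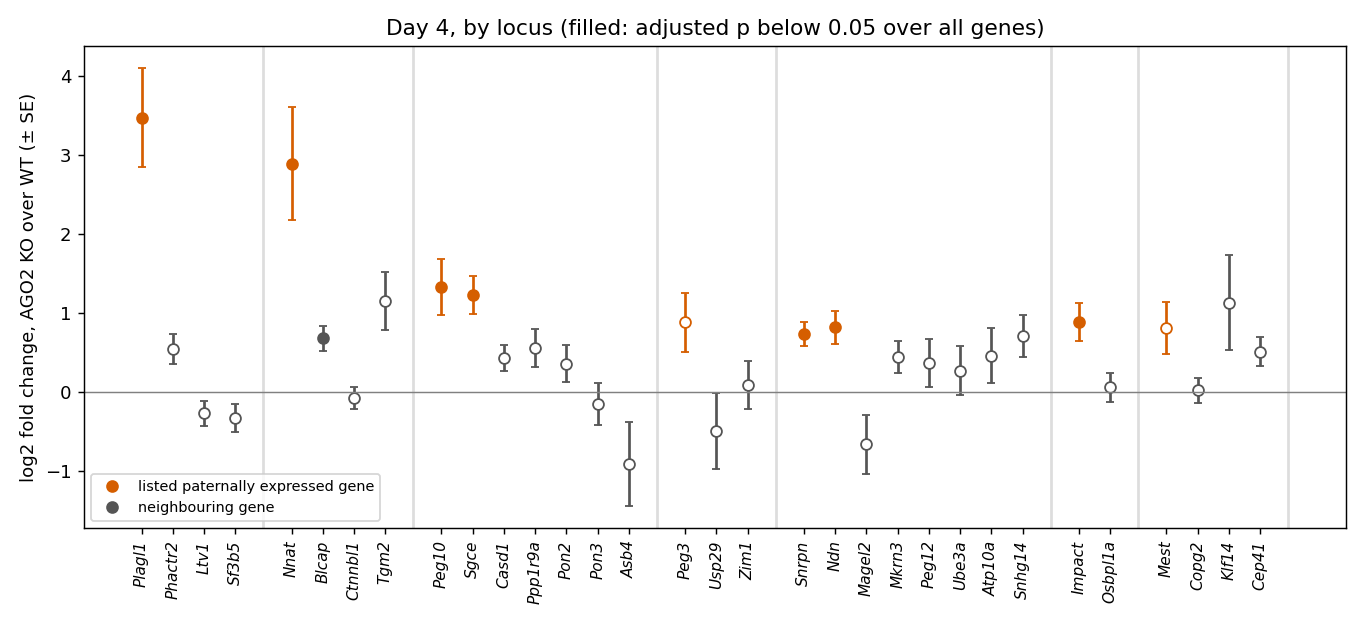
Log2 fold change of AGO2 KO over WT at day 4 with its SE, for the 9 listed genes (orange) and their tested neighbours (grey), grouped by locus. Filled points are called. Blcap, at 0.68, is the neighbour with a call, and 7 of the 9 listed genes have one.

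Other imprinted genes were called in both directions at day 4, when the shares over all genes were 1.99% higher and 5.05% lower. Of 23 further paternally expressed genes tested, 2 were called higher at day 4 (Zrsr1, 0.75 ± 0.16, and Ddc, 1.31 ± 0.34) and 2 lower (Sfmbt2, -2.11 ± 0.28, and Rasgrf1, at 0 in both AGO2 KO libraries and at 0.539 and 0.573 CPM in WT), with a median of 0.54. Of 28 maternally expressed genes, 3 were called higher at day 4 (H19, 4.08 ± 0.72, Rian, 0.89 ± 0.21, and Blcap) and 1 lower (Grb10, -0.85 ± 0.19), with a median of 0.05. H19 was called higher in AGO2 KO on all 4 days, and in diff_XEN it stood at 3381 CPM in clone C4 and 13.4 CPM in clone 5-3, apart in the same direction as Plagl1 and Nnat. In diff_XEN, 10 of 23 further paternally expressed genes were called higher and 3 lower (median 1.36), and 10 of 25 maternally expressed genes higher and 1 lower (median 0.89), against 22.1% higher and 24.9% lower over all genes. Of 15 genes known as a network around PLAGL1, Peg3, Ndn and Mest among them, 2 were called higher at day 4 (H19 and Ndn) and 1 lower (Grb10), with a median of 0.34, and in diff_XEN 7 were called higher and none lower. From day 1 to day 4, 13 of the 15 were called higher in WT, where 26.9% of all genes were, and 14 higher and 1 lower in AGO2 KO, where the shares were 33.3% and 32.9%.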

How the data were processed

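Polyadenylated RNA was sequenced in 24 samples, of which 22 libraries were used, with groups taken from the sample labels and clones from the column names of the endpoint table. The authors deposited raw read counts per gene, made with STAR 2.5.0c and featureCounts 1.4.5-p1 on mm10, per the submitters' processing notes. Which annotation release was counted, and with which strand setting, is not given in the sources used here. 3 columns could not be tied to a sample and were not used.

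Counts were fitted with edgeR 4.0.16 in R 4.3.3 (TMM scaling, default expression filter, robust quasi-likelihood test), in 1 fit for the 16 course libraries and others for the endpoints, tested on simulated data. Alternatives were DESeq2 1.42.0, other scalings and filters, the replicate number as a block and leaving out each library. In all 11 groups the replicates lay further apart than counting noise allows.

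The genes and lists were chosen with earlier results of these data known. Also named are Ago2, locus neighbours, list genes with the smallest p in each direction, and genes most alike over group means. Zfp57, Phlda2, Nap1l5, the clone values of Rasgrf1 and H19 and marker genes at 0 were named after their values were seen. Spans are from GENCODE vM21 and windows from RefSeq, both GRCm38.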

Additional observations from a re-analysis of the deposited data

How the results depend on the processing

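Values are numbers of the 9 genes called. The shares over all genes given earlier are those of the main edgeR fits. None is given for the other settings, so these counts describe the settings and not the 9 genes. For AGO2 KO against WT at day 2 (1 gene), DESeq2 called 5, and edgeR called 7 without the expression filter and 7 with the compared libraries alone. At day 3 (3 genes), the same settings called 6, 7 and 0. For the difference in change over time (0 genes), they called 2, 3 and 2. The other settings that kept all libraries stayed within 1.5 times the count given. Leaving out 1 library gave 0 to 4 genes at day 1, 0 to 2 at day 2, 2 to 5 at day 3, 1 to 5 at day 4, 7 to 7 for WT over time, 7 to 9 for AGO2 KO over time, 0 to 0 for the difference in change, 2 to 6 for diff_XEN and 4 to 5 for WT diff_XEN against mESC. The causes of these shifts were not tested. Each fit with 1 library left out also held fewer samples, and the part of that was not tested either.

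With the replicate number as a block, 2, 1, 3 and 7 genes were called at days 1 to 4, 7 in WT and 9 in AGO2 KO over time, and 0 for the difference in change. Nothing in the labels says that equal numbers pair the samples across groups. Deviations of same-numbered samples correlated at -0.182 to 0.391, above 0.1 in 7 of 28 pairs of groups. Such correlations cannot decide whether samples were paired. Endpoint columns carry no such number, so no paired analysis was possible there.

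Direction turned in 18 values, all uncalled and all with 1 library left out, for which the lowest and highest log2 values follow. Between genotypes these were Peg10 (-0.47 to 0.29) and Peg3 (-0.31 to 0.20) at day 1, Ndn at day 2 (-0.05 to 0.46) and day 3 (-0.24 to 0.02), Impact at day 3 (-0.02 to 0.83), and Plagl1 (-0.28 to 6.53) and Sgce (-0.14 to 0.53) in diff_XEN. For the difference in change they were Plagl1 (-0.02 to 1.23), Nnat (-0.09 to 0.86), Snrpn (-0.46 to 0.04) and Ndn (-0.09 to 0.43), and for WT diff_XEN against mESC Nnat (-1.39 to 1.57) and Impact (-0.31 to 0.59). In WT, single libraries held as few as 10 counts of Plagl1 and 4 of Nnat, and whether counting sets these turns was not tested.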

Other observations

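Of 21 tested genes from a list on imprint maintenance and DNA methylation, 11 were called lower and 3 higher from day 1 to day 4 in WT. Over all genes, 21.6% were called lower and 26.9% higher. The list also holds the Tet genes, Rlim and Zfp42, the last a pluripotent stem cell marker here too. Its counts therefore do not describe genes that keep imprints alone. In AGO2 KO 11 were called lower and 4 higher, against 32.9% and 33.3%. Zfp57, which protects imprints after fertilization, stood at 222 to 228 CPM at day 1 and 135 to 175 CPM at day 4 in WT, and at 222 to 268 and 107 to 122 CPM in AGO2 KO. Between genotypes at day 4, the de novo methyltransferase Dnmt3b (-2.58 ± 0.20) and its cofactor Dnmt3l (-1.77 ± 0.39) were called lower in AGO2 KO and none of the 21 higher, against 5.05% and 1.99% of all genes. Dnmt3b stood at 135 to 143 CPM at day 1 and 295 to 315 CPM at day 4 in WT, and at 128 to 135 and 40.2 to 61.4 CPM in AGO2 KO. In diff_XEN 11 of 20 were called lower and 3 higher, against 24.9% and 22.1%.

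Paralogs of the listed genes, such as Plag1, Plagl2 and the Maged genes, were not called between genotypes on any of the 4 days by edgeR among 10 tested. Of the 10 paralogs, 5, 1, 0 and 1 had an unadjusted p below 0.05 from day 1 to day 4, and DESeq2 called 1, 0, 0 and 0. Shares over all genes for these counts are not given. In diff_XEN 5 of the 10 were called higher in AGO2 KO and none lower, against 22.1% and 24.9% of all genes, among them Maged2 (1.96 ± 0.31) and Maged1 (1.13 ± 0.23).

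Besides Plagl1, Nnat and H19, the imprinted genes on the lists at least 4-fold apart between clones C4 and 5-3 were Nap1l5 (6.63 and 1.48 CPM) and Rasgrf1 (2.39 and 0.0579 CPM, from 35 and 2 counts). Between the WT day 3 replicates, Phlda2 was the other such gene (10.3 and 2.39 CPM).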
